A study of Mus musculus with 30 samples.

Results

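The genes described are the integrins, classical and other numbered cadherins, and protocadherins of mouse intestinal mesenchymal cells. They were taken by symbol among the protein-coding rows of the deposited tables: integrin alpha and beta chains, numbered cadherins, and all names beginning with Pcdh. This gave 113 of the 20093 genes listed in any table, made up of 27 integrin, 19 cadherin and 67 protocadherin rows. The study measured 3' RNA (QuantSeq, which reads near the poly(A) end, so that a count stands for a transcript whatever its length) in cells freshly isolated from C57BL/6 mice. All animals carried ColVI-cre and the Rosa mTmG reporter, in which cells that have expressed Cre turn from membrane Tomato to membrane GFP, so a GFP-positive cell is one with a history of collagen VI Cre expression. The 10 groups were GFP-positive, GFP-negative (labelled Tomato) and unsorted cells of the colon with DSS colitis, the same 3 populations of the normal colon, and GFP-high, GFP-low, GFP-negative and unsorted cells of the normal small intestine. DSS, dextran sulfate sodium, damages the colonic epithelium and causes acute colitis. Each group has 3 replicates by its labels, 29 libraries had values, and for unsorted small intestine cells only replicates 2 and 3 were used. Nothing in the labels says whether replicates came from separate animals or pools, and ages are not given, so p-values measure the spread between these libraries, which may be partly technical.

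Integrins are paired alpha and beta chains that hold cells to the matrix or to other cells. The beta1 chain pairs with the alpha chains that bind collagen and laminin, and the alpha-v chain pairs with beta1, beta3, beta5, beta6 or beta8 to bind RGD-containing matrix proteins. The beta2 chain with its partners, and the beta7 chain, belong to leukocytes. Cadherins are calcium-dependent adhesion molecules: type I and type II cadherins bind their like on the next cell and anchor to actin through catenins, while Cdh13 (T-cadherin) has no cytoplasmic tail and is held by a GPI anchor. The clustered protocadherins are made from 3 neighbouring gene clusters, alpha, beta and gamma. In the alpha and gamma clusters each variable first exon is joined to the same constant exons at the 3' end.

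The deposited values were normalised counts, rounded to whole numbers. The colon with DSS, the normal colon and the small intestine were each scaled on their own, so levels are comparable within each of these and not between them. For the sorted colon populations, the comparisons of DSS with normal cells are on a further scale common to those libraries, and values in the DSS comparisons are on that common scale. Library totals of the normalised counts were 2973595 to 3533264 in sorted DSS colon libraries, 3673100 to 4316381 in sorted normal colon libraries and 2136429 to 2475528 in sorted small intestine libraries. The sequencing depth itself is unknown, because raw counts were not analysed here. Summed over 11 leukocyte markers, sorted libraries held 64 to 785 normalised counts and unsorted libraries 4710 to 13198. Epithelial markers summed to 30 to 411 in sorted libraries and 996 to 13951 in unsorted ones, with the lowest unsorted value in normal colon replicate 1 against 13332 and 13951 in the other two. The 8 mesenchymal markers summed to 22628 to 112456 in sorted libraries and 5724 to 69317 in unsorted ones.

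Not every row stands for its own gene. Of the 22 gamma protocadherin rows, 21 held the same value in every library within 5% plus 1 count, as a read in the shared constant exons allows, and the 14 alpha rows were equal in the same way but for up to 2 rows per colon table. Each cluster was therefore counted once, as Pcdhgc3 for gamma and Pcdhac2 for alpha, while Pcdhgb8, the gamma row that differed, was kept apart. In the colon tables, 4 members equalled a neighbour on the opposite strand in every library by the same tolerance, with differences of up to 14 counts: Cdh23 equalled Psap, Itgb4 equalled Galk1, Itgb7 equalled Zfp740 and Itga7 equalled Mettl7b. For example, Itgb4 read 75, 62 and 74 in GFP-positive DSS colon cells and Galk1 read 73, 62 and 74 in the same libraries. In GFP-high cells of the small intestine the 2 rows were far apart, with 0, 2 and 20 for Itgb4 and 211, 208 and 164 for Galk1. Across all genes, counting pairs within 5 kb with a mean of 20 or more in either gene by that tolerance, 255 to 268 opposite-strand neighbour pairs were equal in each of the 8 colon tables, 5.16% to 6.51% of such pairs, and 0 of 3101 to 3344 in each of the 6 small intestine tables. A colon value of these 4 members cannot be told apart from its neighbour's, so they are left out of the counts below and only their small intestine values are read. This leaves 80 distinct measurements before the 4 rows are dropped, and the choice was made after the values were seen.

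**Figure D1:**
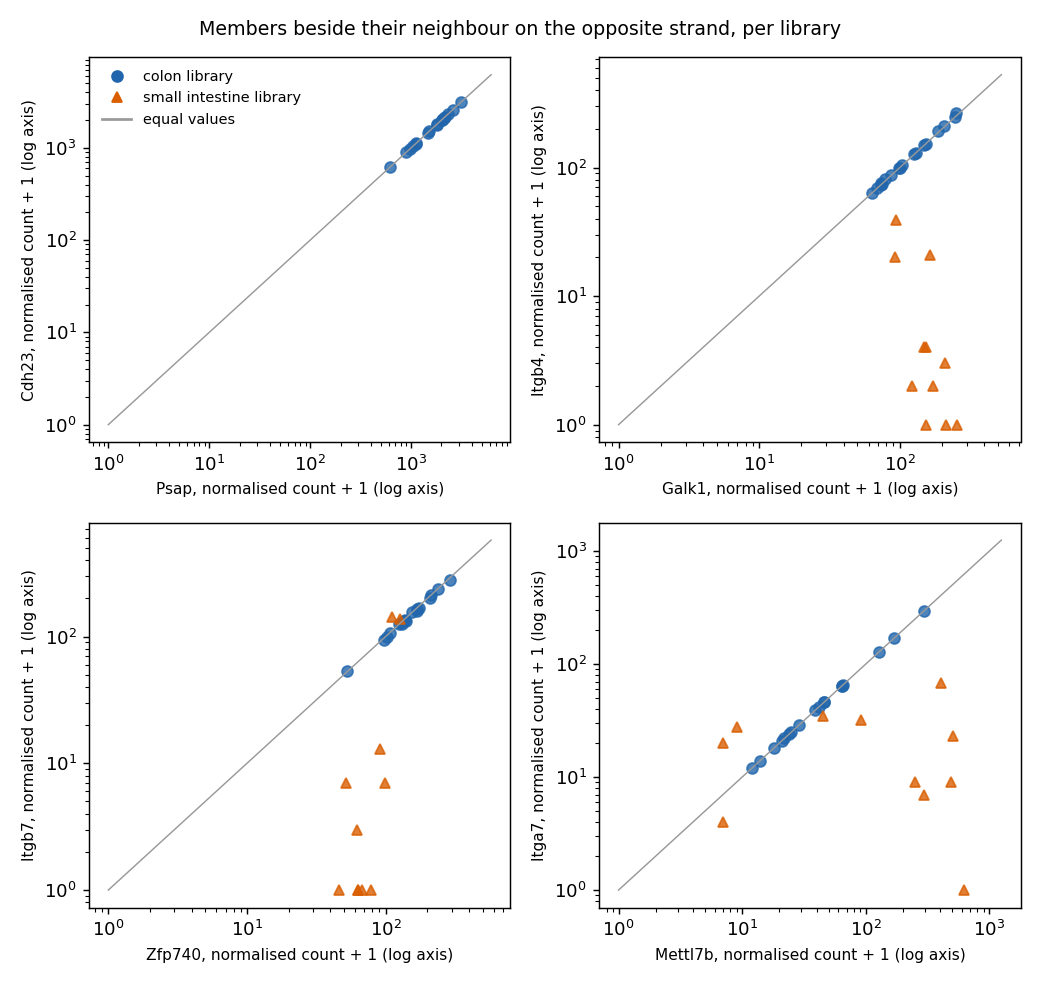
Normalised count plus 1 of 4 members (vertical, log axis) against the neighbour on the opposite strand (horizontal, log axis), 1 point per library. Colon libraries (circles) lie on the line of equal values, and small intestine libraries (triangles) mostly do not. Cdh23 has no small intestine points.

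Of the 80 distinct measurements, 24 reached a mean of 100 normalised counts in at least 1 group and 18 stayed below 10 in all. The shared beta1 chain, Itgb1, was the highest integrin in every sorted group. It averaged 1458 ± 316 in GFP-positive and 1754 ± 143 in GFP-negative DSS colon cells, 3008 ± 152 and 2131 ± 211 in the same populations of the normal colon, and 855 ± 188, 803 ± 65.3 and 666 ± 130.2 in GFP-high, GFP-low and GFP-negative small intestine cells (SD, n = 3 each). Itgb1 was not called in any of the 8 comparisons of sorted cells as deposited.

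Of the beta chains that pair only with alpha-v or, for Itgb3, also with the platelet alpha chain, Itgb5 had higher means than Itgb3 in the small intestine. Itgb5 averaged 394, 411 and 431 in GFP-high, GFP-low and GFP-negative small intestine cells, where Itgb3 averaged 128, 136 and 105 and Itgav 189, 144 and 107. Itgb6, the epithelial beta chain of this class, had 6 normalised counts or fewer in every sorted colon library that listed it and reached 90 in 1 unsorted normal colon library.

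The gamma protocadherin row was among the highest members, with means of 1062, 1126 and 1142 in GFP-high, GFP-low and GFP-negative small intestine cells and 1064 and 1192 in GFP-positive and GFP-negative normal colon cells. The alpha row, Pcdhac2, stayed below 10 in every group. Among non-clustered protocadherins Pcdh7, Pcdh18, Pcdh19, Pcdh9 and Pcdh12 reached 100. Pcdh7 averaged 537 ± 52.6 in GFP-positive normal colon cells and Pcdh18 averaged 364 ± 60.3 in GFP-negative normal colon cells (SD, n = 3 each).

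**Figure D2:**
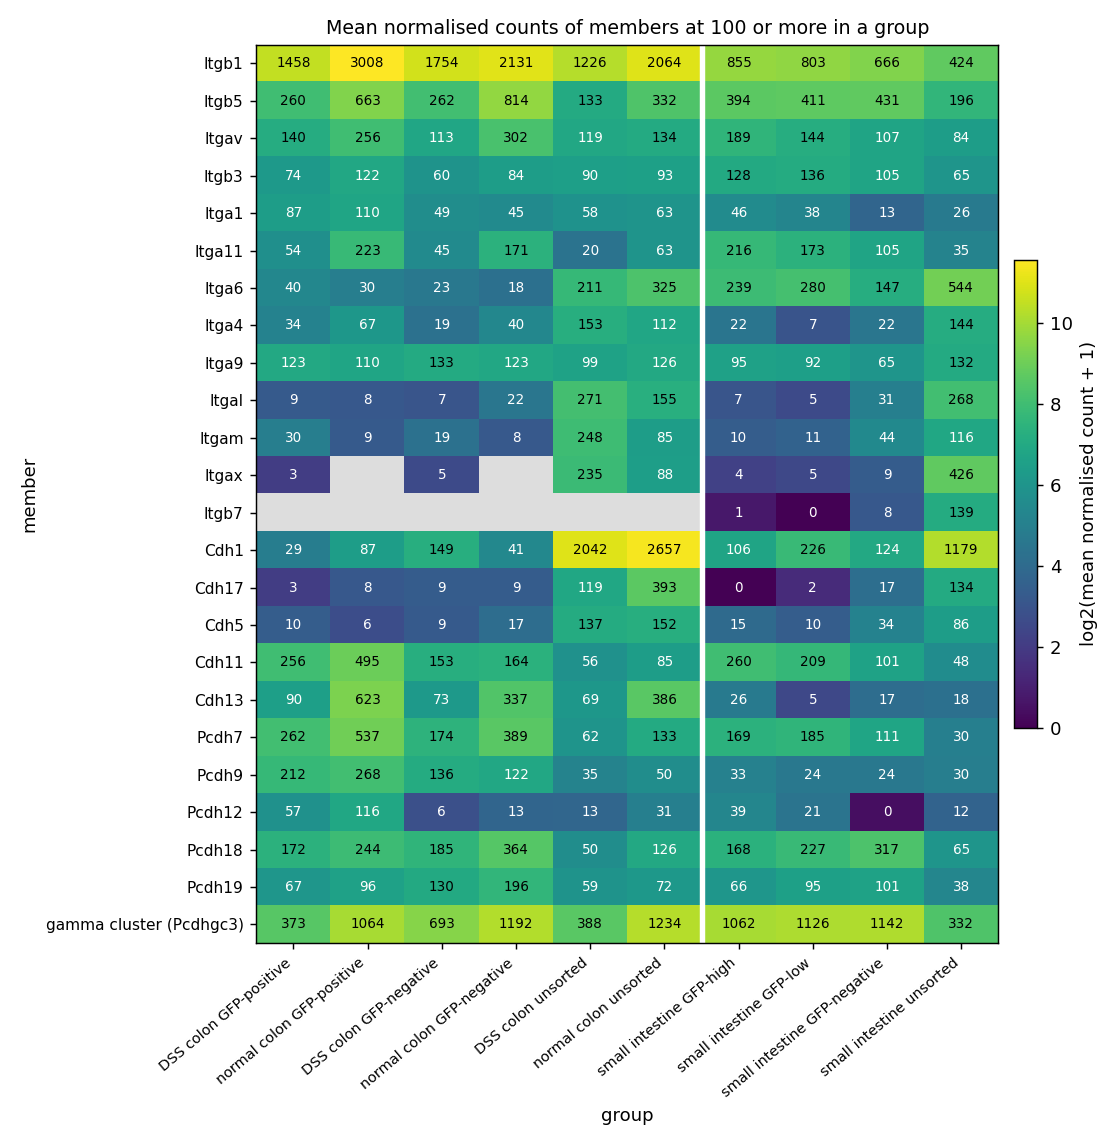
Mean normalised count (printed number, colour on a log2 scale) of the 24 members with a mean of 100 or more in at least 1 group, in the 10 groups. Colon and small intestine columns are on separate scales, as are DSS and normal columns, and grey marks rows not listed or not read. Itgax, Itgal, Itgam, Cdh1, Cdh17 and Cdh5 are highest in the unsorted columns of each tissue and condition.

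The leukocyte integrins other than Itgad and, in the colon, the unread Itgb7 were highest in the unsorted cells of each tissue and condition, among the groups that list them. Itgal, the alpha-L chain of LFA-1 on lymphocytes, had 302, 300 and 210 normalised counts in unsorted DSS colon, 207, 167 and 91 in unsorted normal colon, and 217 and 319 in the 2 unsorted small intestine libraries. In every sorted library it had 46 or fewer. Itgax (CD11c), a chain of dendritic cells and of many intestinal macrophages and lymphocytes, had 243, 205 and 257 in unsorted DSS colon, 102, 66 and 97 in unsorted normal colon, and 366 and 487 in unsorted small intestine. Its highest sorted value was 27, in a GFP-negative small intestine library, and it was not listed for the sorted normal colon.

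Itgb2, the beta2 chain that pairs with those alpha chains, had 148, 83 and 40 in unsorted DSS colon, 126, 74 and 73 in unsorted normal colon, and 25 and 79 in unsorted small intestine. It had 6 or fewer in every sorted library in which it was listed. Itgae (CD103), the chain of intraepithelial lymphocytes, had 28, 14 and 17 in unsorted DSS colon, 32, 22 and 29 in unsorted normal colon, and 33 and 30 in unsorted small intestine, and Itgad stayed below 10 in every group. In the small intestine, where Itgb7 can be read, this partner of Itgae and Itga4 had 141 and 137 in unsorted cells and 12 or fewer in all sorted libraries. For each of these chains but Itgad the unsorted libraries of a tissue and condition were all above its sorted ones, and unsorted groups were described without a test. Replicate 2 of the GFP-negative small intestine cells held the most of them among the sorted libraries of its scale, with 174 summed over the leukocyte integrins other than Itgb7, against 32 and 61 in the other two GFP-negative libraries. In bulk samples such as these, fewer cells of a type and less RNA per cell cannot be told apart.

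Itgam (CD11b, of macrophages and neutrophils) was also read in sorted cells. The unsorted groups had 352, 246 and 146 with DSS and 94, 72 and 90 in the normal colon, each on its own scale. In the small intestine Itgam had 10, 13 and 6 in GFP-high, 8, 19 and 7 in GFP-low and 15, 96 and 20 in GFP-negative cells, against 97 and 135 in unsorted cells. The GFP-negative replicate 2 value was 1 count below an unsorted library. The values in sorted colon cells are given with the DSS response below.

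Cadherins of other tissues followed the same split. Cdh1 (E-cadherin, of epithelium) averaged 2042 in unsorted DSS colon, 2657 in unsorted normal colon and 1179 in unsorted small intestine, and 29 to 226 in the sorted groups. Cdh17 (LI-cadherin, of intestinal epithelium) averaged 119, 393 and 134 in these unsorted groups and 17 or less in the sorted ones. Cdh5 (VE-cadherin, of endothelium) averaged 137, 152 and 86 unsorted and 34 or less sorted. Cdh11, a type II cadherin of mesenchyme, ran the other way within each tissue, with 56, 85 and 48 in the unsorted groups and 101 to 495 in the sorted ones.

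The response to DSS was tested separately in GFP-positive and GFP-negative colon cells, which asks how each population's adhesion genes differ in colitis. The labels number the normal colon libraries in a separate range from the DSS colon libraries. A difference with DSS therefore cannot be told apart from a difference between these sets of libraries. In GFP-positive cells, 4 distinct members were lower and 2 higher with DSS among 41 tested, where a gene counts as called at an adjusted p below 0.05 over all genes tested (limma, Benjamini-Hochberg). Over all 12976 genes, 9.46% were called lower and 10.2% higher. In GFP-negative cells, 3 members were lower and 1 higher of 39 tested, against 4.27% lower and 6.03% higher of all 13025 genes. The members' median log2 fold change was -0.01 in GFP-positive and 0.04 in GFP-negative cells, beside -0.01 and -0.02 over all genes. The share of members called was 14.6% in GFP-positive and 10.3% in GFP-negative cells, beside 19.7% and 10.3% of all genes, so what follows describes single genes and not the family.

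Cdh13, the T-cadherin that binds adiponectin and low-density lipoprotein (gene at chr8:118283733-119324921, mm10, plus strand), was the member with the largest fall. It had 98, 72 and 146 normalised counts in GFP-positive DSS cells, against 564, 527 and 477 in GFP-positive normal cells. In GFP-negative cells it had 83, 68 and 107 with DSS, against 379, 256 and 218 in the normal colon. The groups did not overlap in either population. The log2 fold change was -2.36 ± 0.25 in GFP-positive cells (SE, adjusted p = 5.28e-05) and -1.70 ± 0.28 in GFP-negative cells (SE, adjusted p = 0.00322), and both calls held with any 1 library left out.

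Itga11, the alpha11 chain that pairs with beta1 to bind fibrillar collagen on fibroblasts (gene at chr9:62677826-62783982, mm10, plus strand), fell in both populations. It had 67, 58 and 63 in GFP-positive DSS cells, against 171, 191 and 199 in GFP-positive normal cells, and 62, 52 and 44 in GFP-negative DSS cells, against 111, 207 and 114 in GFP-negative normal cells. No DSS library reached the lowest normal one. The log2 fold changes were -1.56 ± 0.21 in GFP-positive cells (SE, adjusted p = 0.000307) and -1.39 ± 0.30 in GFP-negative cells (SE, adjusted p = 0.0142). In GFP-negative cells the call was lost without normal replicate 2, DSS replicate 2 or DSS replicate 3, with adjusted p of 0.0687, 0.0731 and 0.0748. The other collagen-binding chain at such levels, Itga1, did not pass with DSS, at 0.12 ± 0.24 in GFP-positive and 0.62 ± 0.35 in GFP-negative cells (log2, SE).

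Itgb5, the beta partner of alpha-v that binds vitronectin (gene at chr16:33829665-33949153, mm10, plus strand), fell in both populations as well. It had 304, 285 and 325 in GFP-positive DSS cells, against 680, 574 and 413 in GFP-positive normal cells, and 391, 261 and 274 in GFP-negative DSS cells, against 666, 711 and 680 in GFP-negative normal cells. The log2 fold changes were -0.84 ± 0.21 (SE, adjusted p = 0.0165) in GFP-positive cells and -1.17 ± 0.24 (SE, adjusted p = 0.0115) in GFP-negative cells. In GFP-positive cells the call was lost without normal replicate 1, DSS replicate 1 or DSS replicate 2 (adjusted p 0.0531, 0.0629 and 0.0775), and in GFP-negative cells without DSS replicate 2 or 3 (adjusted p 0.0913 and 0.0732). With plain eBayes the GFP-positive call was lost too (adjusted p = 0.0547). Its partner Itgav was at -0.40 ± 0.25 in GFP-positive and -0.85 ± 0.29 in GFP-negative cells (log2, SE), and neither value passed.

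The promoters of the 2 integrin chains called lower with DSS in both populations are shown as background. Whether these 2 promoters bear on the response to DSS was not tested. Both are RefSeq stretches of 300 bases on GRCm38.p6, 250 bases before to 50 after the start, at chr9:62677605-62677904 and chr16:33829415-33829714 on the plus strand. Capitals mark matches on either strand to the GC box GGGCGG, the AP-1 motif TGANTCA or the TATA box TATAAA.
Itga11: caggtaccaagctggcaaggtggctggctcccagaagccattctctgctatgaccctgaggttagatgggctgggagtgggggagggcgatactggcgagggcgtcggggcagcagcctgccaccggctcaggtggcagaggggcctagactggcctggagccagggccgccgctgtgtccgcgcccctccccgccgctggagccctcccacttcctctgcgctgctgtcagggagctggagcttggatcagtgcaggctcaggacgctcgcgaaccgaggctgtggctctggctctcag
Itgb5: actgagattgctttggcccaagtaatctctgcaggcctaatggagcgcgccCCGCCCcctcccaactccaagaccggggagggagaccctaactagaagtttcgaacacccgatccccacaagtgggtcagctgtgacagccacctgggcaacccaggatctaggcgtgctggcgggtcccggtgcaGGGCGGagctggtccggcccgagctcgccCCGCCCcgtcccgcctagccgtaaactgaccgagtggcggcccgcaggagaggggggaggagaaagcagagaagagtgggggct
The Itgb5 stretch held 3 GC box matches and the Itga11 stretch 0, and neither held an AP-1 or TATA match in these letters. Of all 32851 promoter stretches of this length, 35.7% held the GC box, 7.81% the AP-1 motif and 13.6% the TATA box. The stretches were 68% and 65.7% G and C, where the median of all promoters was 52.7%.

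The gamma protocadherin row (Pcdhgc3) fell in GFP-positive cells, which had 400, 461 and 451 with DSS, against 1048, 728 and 901 in the normal colon. Its log2 fold change was -1.01 ± 0.20 (SE, adjusted p = 0.00424). In GFP-negative cells the DSS libraries stood apart from each other, at 1478, 499 and 465, against 1012, 994 and 1006 in the normal colon. The row was not called in these cells, but it was called lower there without DSS replicate 1. Counted row by row, this 1 measurement would give 21 of the 24 lower calls among all member rows in GFP-positive cells. Pcdhb7 of the beta cluster, whose genes each have their own 3' end, rose in both populations. It had 88, 78 and 109 in GFP-positive DSS cells, against 65, 33 and 47 in GFP-positive normal cells, and 87, 116 and 108 in GFP-negative DSS cells, against 64, 36 and 30 in GFP-negative normal cells. The log2 fold changes were 0.95 ± 0.28 (SE, adjusted p = 0.0301) and 1.30 ± 0.32 (SE, adjusted p = 0.0247). Of the calls with DSS this one was lost most often: it was lost without 5 of the 6 libraries in GFP-positive cells (all but normal replicate 1) and without 4 of the 6 in GFP-negative cells (normal replicates 2 and 3 and DSS replicates 2 and 3), with adjusted p up to 0.124 and 0.128. In GFP-positive cells plain eBayes lost it too (adjusted p = 0.0611).

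Itgam rose in GFP-positive cells, with 35, 45 and 25 normalised counts with DSS, against 10, 7 and 5 in the normal colon. The log2 fold change was 2.12 ± 0.39 (SE, adjusted p = 0.00317), and 1.69 with a pseudocount of 5. In GFP-negative cells it was 1.52 ± 0.51 and did not pass (SE, adjusted p = 0.0781). Itgam was called there when all sorted colon groups were fitted together. Of 6 leukocyte markers tested in GFP-positive cells, 2 were called higher and 4 did not pass. The sum of leukocyte markers over the 10 genes in the table was 464, 135 and 107 in GFP-positive DSS cells. In GFP-positive normal cells it was 53, 59 and 70. The highest sum was in DSS replicate 1, and the highest Itgam value in DSS replicate 2. S100a8 was at 4.61 ± 0.73 and Laptm5 at 2.06 ± 0.53 (log2, SE). Itgb2, the only beta chain with which Itgam pairs, had 1, 0 and 0 in these DSS libraries on the DSS scale. The part of leukocyte RNA in the Itgam value was not tested.

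**Figure D3:**
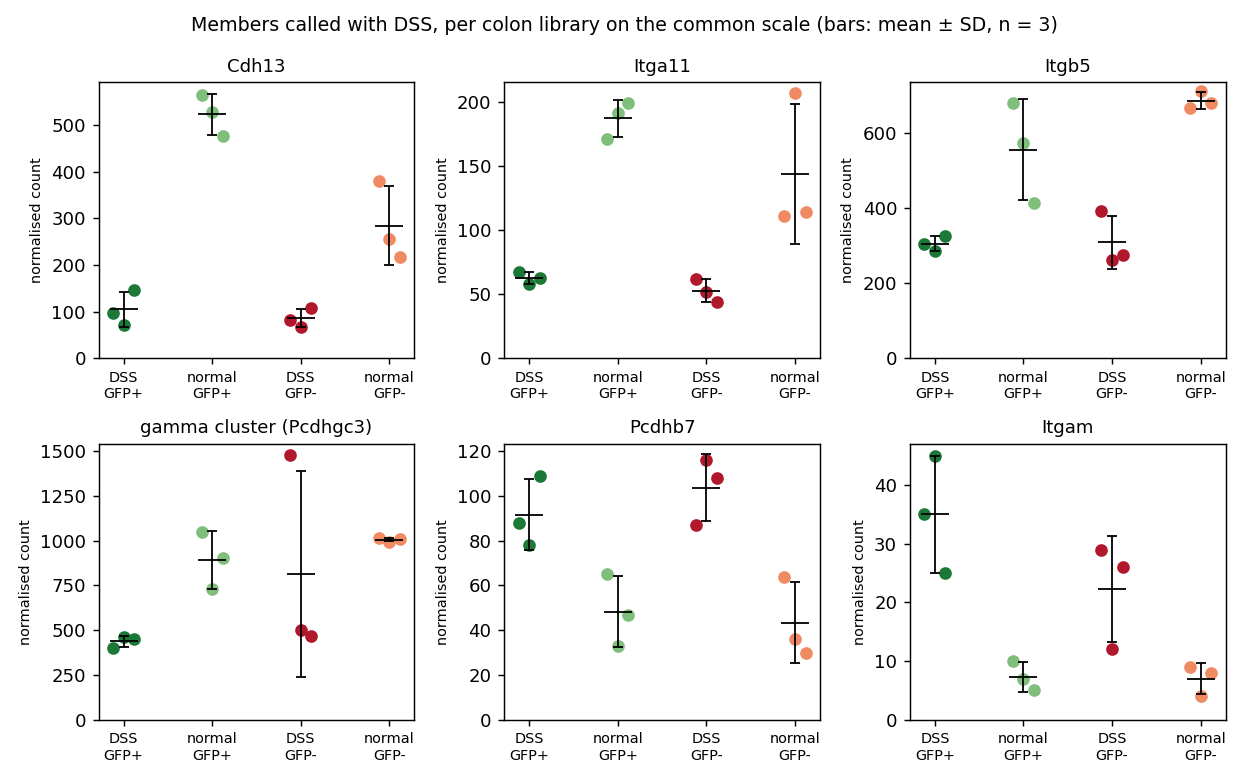
Normalised counts of 6 called members in each sorted colon library, on the scale common to DSS and normal cells (points, with mean and SD, n = 3). Cdh13, Itga11 and Itgb5 are lower and Pcdhb7 higher with DSS in both populations, the gamma row is lower in GFP-positive cells with 1 high GFP-negative DSS library, and Itgam is higher in GFP-positive cells.

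The responses of the populations were then compared directly. The difference of the DSS responses was called for 0 of 43 distinct members, with 4 at an unadjusted p below 0.05, and for 7 of 13488 genes (0.0519%, with 0.0148% higher and 0.0371% lower). For Cdh13 the difference, GFP-positive minus GFP-negative, was -0.66 on the log2 scale (95% interval -1.48 to 0.16). It was -0.18 for Itga11 (-0.93 to 0.58), 0.34 for Itgb5 (-0.34 to 1.01), -0.49 for the gamma row (-1.49 to 0.50) and 0.60 for Itgam (-0.73 to 1.93). Each interval includes 0, and a p that misses the threshold does not show that the responses were alike.

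**Figure D4:**
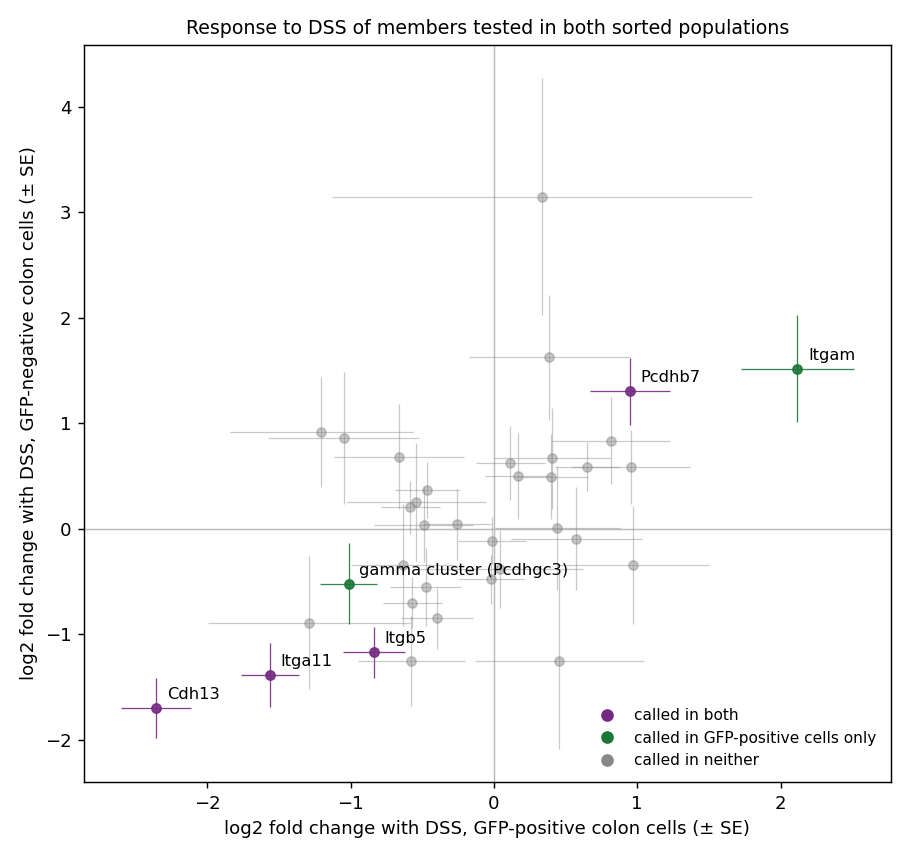
Log2 fold change with DSS in GFP-positive (horizontal) and GFP-negative (vertical) colon cells for the 36 distinct members tested in both, with standard errors. Cdh13, Itga11 and Itgb5 were called lower and Pcdhb7 higher in both populations. In the fits shown, Itgam and the gamma row were called in GFP-positive cells alone, and the difference between populations was not called for either.

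Genes that work with the integrins and cadherins were counted beside the 19.7% of all genes called in GFP-positive and the 10.3% called in GFP-negative cells. Of 20 integrin adaptors tested in GFP-positive cells, 6 fell and 2 rose. The parvin Parvb was at -2.39 ± 0.62, talin (Tln1) at -0.88 ± 0.23 and Parva at -0.86 ± 0.24 (log2, SE). Bcar1 (p130Cas) rose, at 1.03 ± 0.22 (log2, SE). Of 19 tested in GFP-negative cells, 1 rose, the alpha-actinin Actn1 at 0.85 ± 0.24 (log2, SE), and 0 fell. This is 5.26% of the adaptors, below the share of all genes. Of 18 integrin ligands in GFP-positive cells, 6 fell and 2 rose. Postn (periostin) was at -1.65 ± 0.21, Col3a1 at -1.34 ± 0.23 and Fbln5 at -1.12 ± 0.23, and Vcam1, a ligand of alpha4 integrins, at 1.84 ± 0.21 (log2, SE). In GFP-negative cells 4 of 16 ligands fell and 1 rose, with Postn at -2.18 ± 0.34 and Vcam1 at 2.71 ± 0.26 (log2, SE). Of 8 cadherin partners, 2 rose in GFP-positive cells, plakoglobin (Jup) at 2.05 ± 0.41 and afadin (Afdn) at 0.91 ± 0.21, and 2 rose in GFP-negative cells, Nectin2 at 2.18 ± 0.27 and Afdn at 0.995 ± 0.277 (log2, SE). These lists were chosen with results of these data known. From these and the marker lists, 7 genes whose colon values equalled a neighbour were left out, Csf1r and Des among the markers.

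Markers of several cell types differed in the same comparisons. In GFP-positive cells the 8 mesenchymal markers summed to 32397 to 36249 with DSS, against 62959 to 70564 in the normal colon. Smooth muscle and pericyte markers, 5 genes, summed to 1473 to 1939 with DSS, against 363 to 783 in the normal colon, with the pericyte gene Rgs5 at 3.55 ± 0.34 (log2, SE). Endothelial markers, 7 genes, summed to 357 to 410 with DSS, against 212 to 254 in the normal colon, with 1 of 5 tested called higher. In GFP-negative cells the mesenchymal sums overlapped, 72134 to 95875 with DSS, against 68145 to 94907 in the normal colon. Smooth muscle and pericyte markers in these cells summed to 845 to 1448 with DSS, against 307 to 844 in the normal colon, with 1 of 5 tested called higher. The 4 mesothelial markers in the table summed to 39 to 63 with DSS, against 1 to 19 in the normal colon. The part of a change in cell makeup in the members' values was not tested.

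GFP-positive and GFP-negative cells of the normal colon were compared to ask which adhesion genes mark the collagen VI Cre lineage. Of 42 distinct members tested, 3 were higher in GFP-positive cells and 1 lower, beside 2.97% higher and 3.01% lower (5.98% in all) of 13346 genes. The median log2 fold change of the members was 0.18, and of all genes 0.00. The 10 leukocyte markers in the table summed to 64 to 83 in GFP-positive cells, against 201 to 785 in GFP-negative cells, with 2 of 4 tested called lower. Of 8 mesenchymal markers 1 was called higher and 2 lower, with sums of 75285 to 84142 against 80991 to 112456. Of 5 smooth muscle and pericyte markers 1 was called higher, with sums of 431 to 932 against 364 to 1002. The part of these cell types in the members' values was not tested.

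Pcdh12, a non-clustered protocadherin described in endothelium (VE-cadherin-2), was the most different. It had 84, 137 and 126 normalised counts in GFP-positive cells, against 6, 21 and 11 in GFP-negative cells, a log2 difference of 3.22 ± 0.43 (SE, adjusted p = 0.00134). The endothelial cadherin Cdh5 had 4, 7 and 6 in GFP-positive cells, against 9, 27 and 14 in GFP-negative cells. The 8 endothelial markers, 7 of them in the table, summed to 252 to 302 in GFP-positive and 325 to 499 in GFP-negative cells. Of 6 tested, 1 was called lower. The part of endothelial RNA in the Pcdh12 value was not tested.

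Cdh11, which joins mesenchymal cells and osteoblasts to each other, had 457, 611 and 417 in GFP-positive cells, against 131, 186 and 175 in GFP-negative cells (log2 difference 1.58 ± 0.26 SE, adjusted p = 0.00452). The calls of Pcdh12 and Cdh11 held with any 1 library left out. Itga1, the alpha1 chain of a collagen and laminin receptor, had 96, 129 and 106 in GFP-positive cells, against 30, 64 and 41 in GFP-negative cells, at 1.33 ± 0.32 (log2, SE, adjusted p = 0.0349). Pcdh19, an X-linked non-clustered protocadherin that in humans is mutated in an epilepsy, was lower, with 89, 120 and 80 in GFP-positive cells, against 205, 207 and 177 in GFP-negative cells, at -1.04 ± 0.25 (log2, SE, adjusted p = 0.0359). None of these 4 overlapped between the groups, which adds no support to calls made on the same values. The calls of Itga1 and Pcdh19 were each lost without 5 of the 6 libraries, with adjusted p up to 0.134 and 0.161. Itga1 kept its call only without GFP-negative replicate 2 and Pcdh19 only without GFP-positive replicate 2, and Pcdh19 also lost it at equal totals (adjusted p = 0.0711). Plain eBayes called neither (adjusted p 0.0601 and 0.0698).

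In the colon with DSS, 4 of 36 distinct members were higher and 4 lower in GFP-positive than in GFP-negative cells, beside 8.22% higher and 8.9% lower of all 12570 genes. Marker lists differed in this comparison too. The 8 mesenchymal markers summed to 27574 to 30997 in GFP-positive cells, against 61206 to 81669 in GFP-negative cells, with 5 called lower and 1 higher. Mesothelial markers summed to 10 to 20 in GFP-positive and 31 to 47 in GFP-negative cells, and of 3 glial and neuronal markers tested 2 were called lower. Smooth muscle and pericyte markers summed to 1257 to 1658 in GFP-positive and 717 to 1232 in GFP-negative cells. Endothelial markers, 7 genes, summed to 306 to 351 in GFP-positive and 243 to 429 in GFP-negative cells. Of 4 endothelial markers tested, 1 was called higher and 2 lower. The part of any of these cell types in the members' values was not tested. Pcdh12 again was far higher, with 59, 28 and 84 in GFP-positive DSS cells, against 7, 5 and 6 in GFP-negative DSS cells, at 2.93 ± 0.40 (log2, SE, adjusted p = 0.000109). Cdh11 had 321, 226 and 222 in GFP-positive cells, against 167, 113 and 179 in GFP-negative cells, at 0.75 ± 0.22 (log2, SE, adjusted p = 0.0294). Itga1 had 112, 74 and 74 in GFP-positive cells, against 57, 34 and 56 in GFP-negative cells, at 0.82 ± 0.26 (log2, SE, adjusted p = 0.0443). Pcdh19 had 75, 64 and 62 in GFP-positive cells, against 123, 132 and 135 in GFP-negative cells, at -0.95 ± 0.19 (log2, SE, adjusted p = 0.00326). These 4 genes are those of the normal colon, in the same direction, in separate libraries. The share of all genes called in both conditions is not given here, so this count describes these genes alone. The calls of Pcdh12 and Pcdh19 held with any 1 library left out, and that of Cdh11 was lost without GFP-negative replicate 2 or GFP-positive replicate 1 or 2 (adjusted p 0.139, 0.159 and 0.0512). That of Itga1 was lost without GFP-negative replicate 2 or any 1 GFP-positive replicate (adjusted p 0.0663 to 0.21). Both were also lost with plain eBayes (adjusted p 0.0982 for Cdh11 and 0.0956 for Itga1). The replicate number was also used as a block, which takes same-numbered libraries as pairs, though the labels do not say that they are. Pcdh7 at 0.59 ± 0.21 and Pcdh9 at 0.79 ± 0.37 (log2, SE) were then called as well. Their adjusted p was 0.0302 and 0.0308 under the block, and 0.0701 and 0.181 without it.

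**Figure D5:**
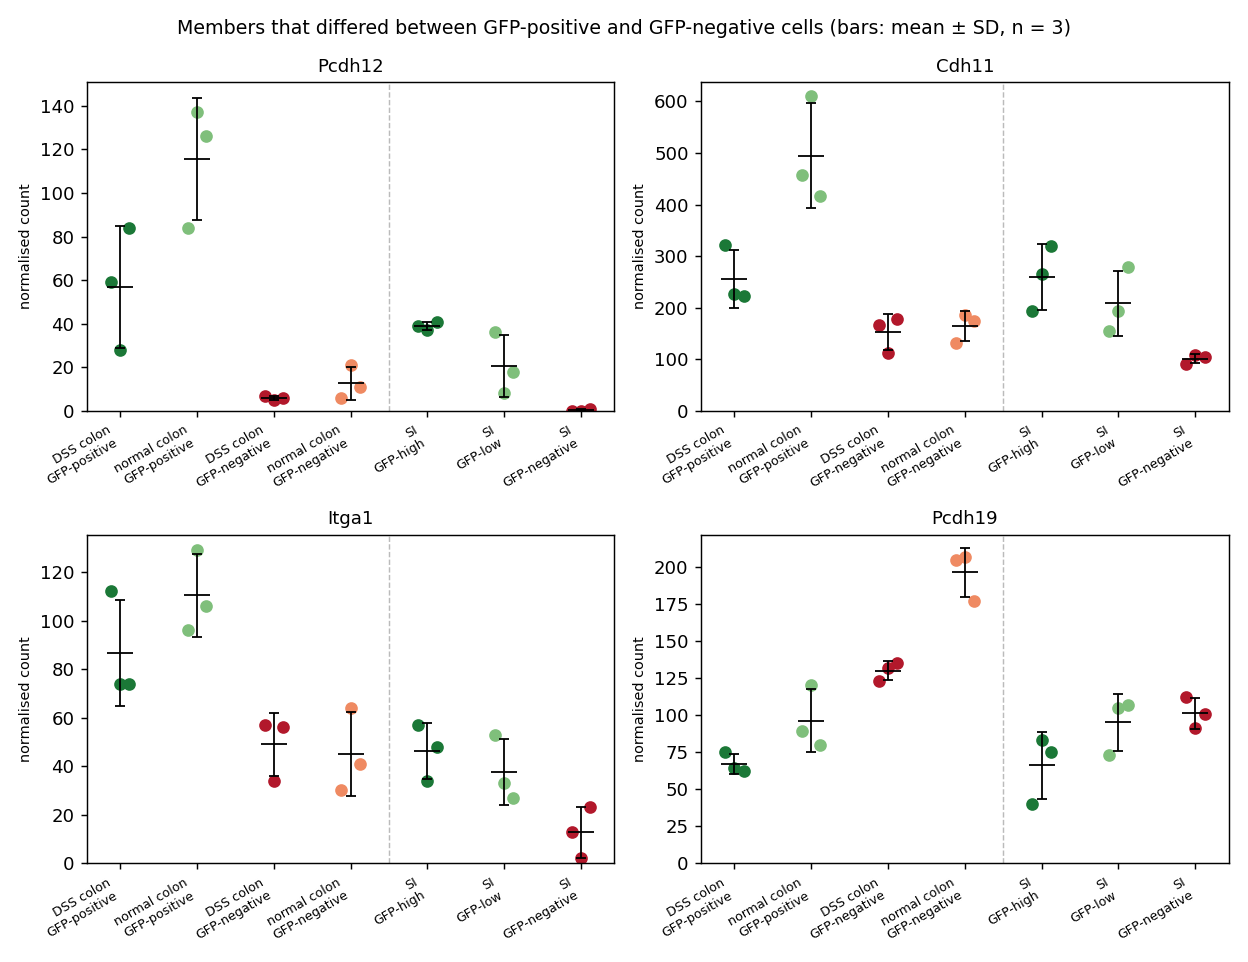
Normalised counts of 4 members in each library of the 7 sorted groups (points, with mean and SD, n = 3); the 2 conditions of the colon and the small intestine are on separate scales. Pcdh12, Cdh11 and Itga1 are higher and Pcdh19 lower in GFP-positive than in GFP-negative cells of the colon in both conditions. In the small intestine the call passed for Pcdh12 in GFP-high cells.

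The other 4 calls of the DSS colon were not made in the normal colon, and the difference between the conditions was called for 0 of the 43 members in which it was tested. Cdh1 had 38, 21 and 27 in GFP-positive DSS cells, against 70, 97 and 281 in GFP-negative DSS cells, at -2.12 ± 0.44 (log2, SE, adjusted p = 0.00643). Epithelial markers were lower beside it, Epcam at -2.41 ± 0.61 and Krt20 at -2.78 ± 0.72 (log2, SE), 2 of 6 tested, and all 8 in the table summed to 47 to 92 in GFP-positive and 83 to 266 in GFP-negative cells. The part of epithelial RNA in the Cdh1 value was not tested. In a fit that pooled the spread over all sorted colon libraries of the same scale, Cdh1 was not called (adjusted p = 0.473). Cdh11, Itga1 and Cdh6 also lost their calls in that fit, with adjusted p of 0.0713, 0.109 and 0.0589.

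The remaining 3 were at low levels. Cdh4 (R-cadherin) had 23, 5 and 22 in GFP-positive cells, against 1, 0 and 2 in GFP-negative cells, and its log2 difference of 3.04 ± 0.73 (SE, adjusted p = 0.01) was 1.72 with a pseudocount of 5. Cdh6 (K-cadherin, of kidney) had 4, 1 and 5 in GFP-positive cells, against 13, 15 and 13 in GFP-negative cells, at -1.90 ± 0.56 (log2, SE). Pcdhgb8 had 7, 1 and 3 in GFP-positive cells, against 19, 14 and 13 in GFP-negative cells, at -2.01 ± 0.57 (log2, SE). Each of these 3 calls was lost with some libraries left out: Cdh4 without GFP-positive replicate 1 or 3, Cdh6 without any 1 GFP-negative replicate or GFP-positive replicate 2, and Pcdhgb8 without GFP-negative replicate 1 or 2 or GFP-positive replicate 2 or 3, with adjusted p up to 0.0827, 0.107 and 0.0833.

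Partners of both families were compared between the populations, beside 5.98% of all genes called in the normal colon and 17.1% in the DSS colon. In the normal colon 0 of 8 cadherin partners were called by limma, with 0 at an unadjusted p below 0.05. There 1 of 20 adaptors (5%, below the share of all genes) was higher in GFP-positive cells, Actn1 at 1.74 ± 0.25 (log2, SE). Of 18 ligands 2 were higher, the laminin chain Lama5 at 1.56 ± 0.34 and tenascin C (Tnc) at 1.19 ± 0.28, and 2 lower, Edil3, an alpha-v ligand, at -4.41 ± 0.52 and Vcam1 at -1.15 ± 0.24 (log2, SE). In the DSS colon 6 of 18 adaptor rows were higher and 2 lower, with kindlin-2 (Fermt2) at 1.32 ± 0.19 and Actn1 at 1.35 ± 0.17, and of 16 ligands 4 were higher and 6 lower, with Lama5 at 1.46 ± 0.19 and Edil3 at -3.24 ± 0.43 (log2, SE). Of 8 cadherin partners there, Jup was higher, with a log2 difference of 3.13 ± 0.22, and Nectin2 lower, at -0.97 ± 0.20 (SE).

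In the small intestine 1 of 42 distinct members differed between GFP-high and GFP-negative cells, where 0.894% of all 12412 genes were called. Marker sums of these groups did not overlap for 3 lists. Smooth muscle and pericyte markers summed to 2813 to 4747 in GFP-high cells, against 1670 to 2356 in GFP-negative cells. In GFP-low cells they summed to 5242 to 7746. Mesenchymal markers summed to 22628 to 28585 in GFP-high cells, against 41977 to 60822 in GFP-negative cells. Leukocyte markers summed to 79 to 149 in GFP-high cells, against 282 to 645 in GFP-negative cells. Tested singly, 1 of 8 mesenchymal markers was called higher and 0 lower, and 0 of 7 leukocyte markers were called. Of 6 smooth muscle and pericyte markers, 1 was called higher. The part of these cell types in the member's value was not tested. The called member was Pcdh12, with 39, 37 and 41 normalised counts in GFP-high cells, against 0, 0 and 1 in GFP-negative cells. Its log2 difference was 4.99 ± 1.05 with a pseudocount of 1 (SE, adjusted p = 0.0486) and 3.05 with a pseudocount of 5, since the GFP-negative libraries were near 0. The groups were far apart, and the adjusted p stood at the threshold: it was lost without any 1 library other than GFP-negative replicate 3, at up to 0.338. With the replicate number as a block it was lost as well (adjusted p = 0.108). In GFP-low cells Pcdh12 had 36, 8 and 18, above the GFP-negative libraries and at 3.88 ± 1.22 (log2, SE), which did not pass (adjusted p = 0.15).

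Cdh11 and Itga1 had higher means in the GFP-high cells and did not pass. Cdh11 had 193, 266 and 320 in GFP-high, 154, 194 and 278 in GFP-low and 91, 109 and 104 in GFP-negative cells, and the difference of GFP-high from GFP-negative cells was 1.32 ± 0.34 (log2, SE, adjusted p = 0.12). Itga1 had 57, 34 and 48 in GFP-high, 53, 33 and 27 in GFP-low and 13, 2 and 23 in GFP-negative cells, with a GFP-high difference of 2.21 ± 0.82 (log2, SE, adjusted p = 0.33). Pcdh19 had 40, 83 and 75 in GFP-high, 73, 105 and 107 in GFP-low and 112, 91 and 101 in GFP-negative cells. Itga6, the alpha6 laminin receptor chain of epithelium and endothelium, ranged from 19 to 477 over the sorted small intestine libraries and passed no test.

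Between GFP-low and GFP-negative cells 0 of 43 distinct members were called by limma, with 6 at an unadjusted p below 0.05 and 0.675% of all 12445 genes called, 0.112% higher and 0.562% lower. Between GFP-high and GFP-low cells 0 of 38 were called, with 3 at an unadjusted p below 0.05 and 0.384% of all 12226 genes called, 0.368% higher and 0.0164% lower. Plain eBayes gave 0 members in both. Among partners, the parvin Parva was higher in GFP-high than in GFP-negative cells, 1 of 22 adaptors at 1.40 ± 0.29 (log2, SE), filamin (Flna) was higher in GFP-high than in GFP-low cells, 1 of 20 adaptors at 1.77 ± 0.33 (log2, SE), and the fibrillin Fbn1 was lower in GFP-low than in GFP-negative cells, 1 of 18 ligands at -1.86 ± 0.32 (log2, SE).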

How the data were processed

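Values came as 14 tables of pairs of groups. Per the file headers, the deposited score of each library is a read count that the authors normalised and rounded to whole numbers; a score column of this kind is not a raw count. TopHat2, Bowtie2, DESeq and the build mm10 are named in the submitters' processing notes, without versions; no source used here names the counting program, its strand setting or the annotation. The p-values, fold changes and log2 and rpgm columns that the authors deposited were not used.

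Genes with a mean of 10 or more in either group were tested as log2(value + 1) with limma 3.58.1 (R 4.3.3, trend and robust eBayes), with Benjamini-Hochberg adjustment over all genes of the table and a threshold of 0.05; 12226 to 13488 genes entered. The fit was tested on simulated data. Common-scale values were 0.836 to 0.844 times the own-scale values in normal and 1.17 to 1.18 times in DSS libraries. Members were named if a mean reached 100 in any group, if called, or if leukocyte integrins; partners were named among those called, up to 4 per list and comparison. Members and lists were chosen with earlier results of these data known.

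Deviations of same-numbered libraries from their group means were correlated over genes with a mean of 100 or more. For GFP-positive with GFP-negative DSS colon cells the correlations were 0.101, 0.354 and 0.135 for numbers 1, 2 and 3. For GFP-high with GFP-low small intestine cells they were 0.164, 0.339 and 0.317. For normal with DSS GFP-negative colon cells they were 0.154, 0.051 and 0.134. For normal with DSS GFP-positive colon cells they were -0.08, -0.23 and -0.016. For GFP-positive with GFP-negative normal colon cells they were 0.241, -0.259 and 0.186. Against GFP-negative small intestine cells, GFP-high cells gave 0.17, -0.365 and -0.277 and GFP-low cells 0.187, -0.571 and -0.239. The signs differed between groups and between numbers, so these correlations do not settle whether same-numbered libraries were paired. Alternatives were another pseudocount, no filter, plain eBayes, the replicate number as a block, equal totals, a fold minimum, all sorted groups of a scale in 1 fit, and each library left out. Of 28 pairs of libraries within a group, 0 were identical.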

Additional observations from a re-analysis of the deposited data

How the results depend on the processing

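Counts of distinct members called stayed within 1.5 times the reported count in all comparisons and alternatives but the following. A like count can hold other genes: with plain eBayes Itgb5 and Pcdhb7 lost their calls with DSS in GFP-positive cells, where Pcdhb19, Pcdhb20 and Pcdhb5 were called, and Itga1 and Pcdh19 lost theirs without DSS and Cdh11 and Itga1 with DSS between the populations. In GFP-negative cells with DSS, 7 were called in place of 4 when all sorted colon groups were fitted together. Counting all member rows, an alternative chosen after seeing the data, gave 27 in place of 6 for GFP-positive cells with DSS. Between GFP-positive and GFP-negative DSS colon cells, 5 of the 8 calls passed a log2 fold change of at least 1, and 4 members were called when all sorted groups were fitted together. With the replicate number as a block, the 1 call between GFP-high and GFP-negative small intestine cells became 0; the block changed no other member count by over 1.5 times (6, 5, 0, 5 and 10 members in the 5 colon comparisons, in the order DSS in GFP-positive cells, DSS in GFP-negative cells, their difference, normal colon, DSS colon). The cause of these shifts was not tested. Leaving out 1 library gave 4 to 6 members for DSS in GFP-positive cells, 1 to 5 for DSS in GFP-negative cells, 2 to 4 between the populations without DSS, 4 to 9 between them with DSS, 0 to 1 for GFP-high against GFP-negative small intestine cells, and 0 in each of the other 3 comparisons. The count fell to 2 for DSS in GFP-negative cells without normal replicate 2 and to 1 without DSS replicate 2 or 3, to 2 without DSS when GFP-negative replicate 3 or GFP-positive replicate 1 or 3 was left out, and to 4 with DSS when replicate 2 of either population was left out. Between the populations with DSS, 3 of the 6 omissions moved the count beyond 1.5 times, replicate 2 of either population included. Of the 24 single-gene results, which include the unread colon row of Itgb7, 0 reversed under any alternative. Members at 100 or more in a group numbered 24, and 23 at equal totals. At equal totals the median log2 fold change of all genes was -0.13 with DSS in GFP-positive cells, against -0.01 as deposited, and -0.14 in GFP-negative cells, against -0.02; the named members kept their direction, and Itgb1 and Pcdh7 were called as well with DSS in GFP-positive cells (8 members). Counts over all genes moved more. A log2 fold change of at least 1 left 1538 of 2555 genes for DSS in GFP-positive cells and 1364 of 2152 between the DSS populations. Fitting all sorted groups together gave 2061 in place of 1341 for DSS in GFP-negative cells, 1332 in place of 2152 between the DSS populations, and 167, 26 and 19 in place of 111, 84 and 47 for GFP-high against GFP-negative, GFP-low against GFP-negative and GFP-high against GFP-low. Plain eBayes gave 21, 0 and 0 in these 3. The block gave 43 and 91 in the last 2, a pseudocount of 5 gave 143 and equal totals 44 for GFP-low against GFP-negative, and a pseudocount of 5 gave 11 in place of 7 for the difference of DSS responses. Depth is unknown, so values near 0, such as Pcdh12 in GFP-negative small intestine cells, carry no counting interval.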

Other observations

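The 20 beta protocadherins, each counted on its own row, were mostly low. By its highest group mean Pcdhb7 led, followed by Pcdhb9 and Pcdhb17. Pcdhb9 had 10, 18 and 18 in GFP-high, 57, 34 and 49 in GFP-low and 13, 3 and 17 in GFP-negative small intestine cells, and the GFP-low libraries were above the others. By limma it did not pass, with a log2 difference of 2.22 ± 0.74 between GFP-low and GFP-negative cells (SE, adjusted p = 0.175), and it was picked after its values were seen. Pcdhb17 had 47, 44 and 39 normalised counts in GFP-positive DSS colon cells, against 38, 54 and 47 in GFP-positive normal colon cells, each on its own scale. Pcdhb17 had 40, 21 and 32 in GFP-high, 8, 30 and 25 in GFP-low and 19, 26 and 22 in GFP-negative small intestine cells. Pcdhb7 had 25, 60 and 64 in GFP-high, 15, 73 and 11 in GFP-low and 58, 34 and 50 in GFP-negative small intestine cells, and these groups overlapped.

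Some members of neural and glial cells were seen in unsorted cells. Cdh19, a cadherin of Schwann cells and enteric glia, had 12, 19 and 15 in unsorted DSS colon and 85, 40 and 39 in unsorted normal colon, and 4 or fewer in the sorted DSS colon libraries. Pcdh17 had 44, 21 and 17 in unsorted DSS colon and 34, 51 and 144 in unsorted normal colon, and 5 or fewer in every sorted colon library. Itga8, the alpha8 chain of smooth muscle and some mesenchyme, was low throughout, at 41 at most, in an unsorted normal colon library.

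Itga9, which pairs with beta1 and binds tenascin C, had 138, 115 and 116 in GFP-positive DSS, 132, 90 and 109 in GFP-positive normal, 114, 140 and 146 in GFP-negative DSS and 120, 117 and 131 in GFP-negative normal cells on their own scales. On the common scale its log2 fold change with DSS was 0.65 ± 0.22 in GFP-positive cells (SE, adjusted p = 0.054 by limma) and 0.59 ± 0.23 in GFP-negative cells (SE, adjusted p = 0.13), neither of which passed.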
